A study of Mus musculus with 8 samples.

Results

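The replication-dependent histone genes encode the linker histone H1 and the core histones H2A, H2B, H3 and H4 that package newly made DNA. In the tables of 27178 genes, 68 protein-coding genes matched by symbol (names starting with Hist followed by a cluster number and h, or the newer names of the H1, H2A, H2B, H3 and H4 cluster genes). One of them, H1f10, matched only because its name begins like that of a cluster gene. It encodes a linker variant that is not made in S phase alone, and its values are given apart. The other 67, called members here, comprised 6 H1, 18 H2A, 18 H2B, 12 H3 and 13 H4 genes, of which 54 lie in the Hist1 cluster on chromosome 13, 10 in Hist2 on chromosome 3, 2 in Hist3 on chromosome 11 and 1 in Hist4 on chromosome 6.

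Histone mRNAs of this family are the known exception to polyadenylation: their 3′ end is a stem-loop that SLBP binds and that is cut just downstream with the help of U7 snRNA, so the mRNA carries no poly(A) tail. They accumulate in S phase, when progenitor cells copy their DNA, and are degraded when replication stops. Some family members can also be cleaved further downstream at an ordinary poly(A) signal, and such transcripts are polyadenylated. The labels' protocols name mRNA capture but not its means. Capture by oligo(dT) retains mainly transcripts with a tail.

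The 8 libraries came from 2 experiments on embryonic mouse cortex, with 2 libraries in each of 4 groups. In one experiment ICR embryos of wild-type genotype received a plasmid at 3 µg/µl, expressing either an shRNA against Lockd, a long noncoding RNA, or a control, by electroporation in utero at embryonic day (E) 14.5, and cells positive for GFP were collected by flow sorting at E16.5. In the other, E13.5 cortices of C57BL/6 embryos, PlyA-KI or wild type, were dissected whole and pooled, with no treatment. What the PlyA-KI allele carries is not spelled out in the labels, so that it goes by its label. Both groups of the first experiment shared the ICR background, the electroporation and the sort. The labels call the libraries biological replicates, but do not say how many embryos each holds, so that p-values measure the spread between these libraries.

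Total counts ran from 12805874 to 15911118 in the sorted cells and from 35167646 to 47460020 in the cortices. Lockd was at 4.85 and 2.83 counts per 1e6 library counts (CPM) in the shRNA libraries, against 8.90 and 7.80 CPM in the controls, and at 0.102 and 0.0569 CPM in the PlyA-KI cortices, against 22.1 and 24.0 CPM in wild type, so the labels held in all 8. Replicate libraries differed by more than sampling noise, with a chi-square per gene of 11.7 to 24.0 in the 4 groups. Counts of 20 or less were even for 42.1% to 44.0% of genes in the sorted cells and for 65.8% to 66.8% in the cortices. Whether mates of a pair were counted singly in the cortices was not tested. Summed CPM of 10 erythroid markers lay between 5.67 and 16.3 in the sorted cells and between 352 and 643 in the cortices.

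The stem-loop itself was searched in the GENCODE vM21 transcript models (build GRCm38), and 44 of the 67 members held a match in a model. A match was a stem of 6 paired bases (G with T allowed) that opens with GG and closes with CC, around a loop of 4 bases that opens with TT, on the transcript strand. Of all protein-coding models, counted by model and not by gene, 1.23% held one. The matches were of 6 kinds, of which the first below was found in 26 members of the H1, H2A, H2B and H3 classes, and the H4 genes had forms of their own. They are shown for the members on which the results turn, with the stem-loop of 16 bases in capitals and up to 5 flanking bases on either side.
Hist3h2ba (H2B): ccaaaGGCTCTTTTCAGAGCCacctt
Hist3h2a (H2A): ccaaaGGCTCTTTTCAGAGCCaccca
Hist1h1c (H1): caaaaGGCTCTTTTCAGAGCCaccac
Hist2h3c1 (H3): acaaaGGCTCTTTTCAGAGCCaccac
Hist1h4i (H4): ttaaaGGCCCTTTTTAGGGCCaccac
Hist1h4b (H4): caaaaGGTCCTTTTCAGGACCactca
Hist1h2ag (H2A): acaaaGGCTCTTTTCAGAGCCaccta
Hist1h2ao (H2A): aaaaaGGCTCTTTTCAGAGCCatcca

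The models differ most in what follows the loop. The model of Hist1h2ag ends 23 bases past it, that of Hist1h4b 28 bases and that of Hist1h2ao 31 bases, close to where the cut at the stem-loop falls. By contrast the longest model reaches 169 bases past the loop for Hist3h2ba, 330 for Hist1h4i, 840 for Hist1h1c, 1167 for Hist2h3c1 and 1643 for Hist3h2a. These longer models close with a hexamer read as a poly(A) signal, AATAAA or ATTAAA, in capitals below with the bases around it.
Hist3h2ba: ggtattAATAAAtttggttcaattttggcc
Hist3h2a: atgcccAATAAAataagagtacgtgtataa
Hist1h1c: gcttctAATAAAaagcgtttagttttcatt
Hist1h4i: gtttacATTAAAagtattctatgctaa
Hist2h3c1: aatcccAATAAAaatttaacacactgcta
Hist2h2be: attattAATAAAgttaccgattagtttc

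One of the hexamers stood in the last 50 bases of a model for 17 of the 67 members, against 50.2% of the 58797 protein-coding models. A member counted if any of its models held the hexamer, while the second share is over models and not genes. The 17 members with the hexamer carried 90.1% of all member counts over the 8 libraries, and the 50 without carried 9.93%. This share rested on a few genes, since the median level per length was alike, at 0.535 FPKM (the count per kilobase and per 1e6 library counts, as the authors gave it) for the 17 and 0.524 FPKM for the 50. Of the 6 most abundant members, 5 had the hexamer, and Hist1h2bc did not. Across the 44 members with a loop, the number of bases past it and the mean FPKM had a Spearman rho of -0.11, a description over genes that share their libraries.

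**Figure D1:**
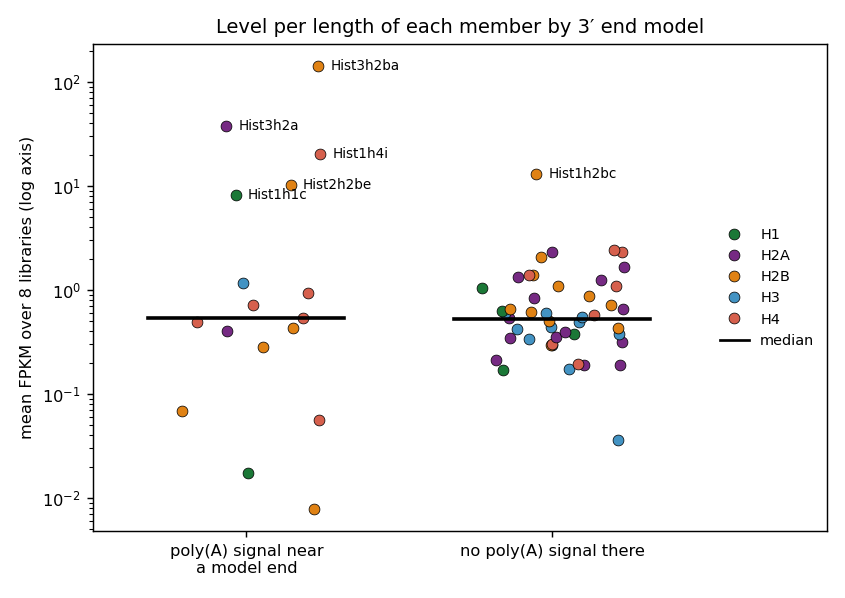
Mean FPKM over the 8 libraries (log axis) of each member, by whether AATAAA or ATTAAA stands in the last 50 bases of a GENCODE model. Points are members coloured by class and lines are medians over all members of the column (0.535 and 0.524 FPKM). The 3 members with no count have no point but enter the median. The highest points, from Hist3h2ba at 141.6 FPKM down, stand in the left column with the exception of Hist1h2bc.

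Few members made up nearly all of the signal. Hist3h2ba, an H2B gene of the small Hist3 cluster (chr11:58948911-58949372 in mm10), had the highest level per length at a mean of 141.6 FPKM, and its neighbour Hist3h2a (chr11:58954685-58955192), an H2A gene, followed at 37.6 FPKM. Next came Hist1h4i at 20.2, Hist1h2bc at 12.9, Hist2h2be at 10.1 and Hist1h1c at 8.12 FPKM, and no other member exceeded 2.42 FPKM. In counts, the Hist3 genes held 61.9% and the first 6 members 92.0% of the total, and 43 members never passed 20 counts in a library. Hist1h2aa, Hist1h2af and Hist1h2ba had no count, which allows up to 0.0632 to 0.234 CPM, depending on the library. These limits, like the intervals below, cover counting error only.

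**Figure D2:**
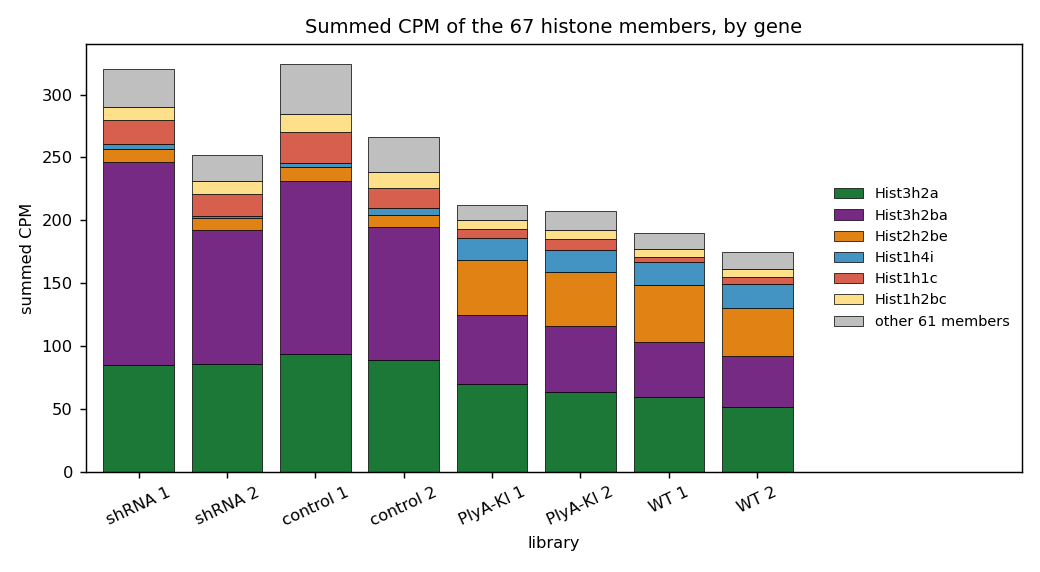
Summed CPM of the 67 members in each library, stacked by gene, with the shRNA and control libraries of sorted E16.5 cells on the left and the PlyA-KI and wild-type (WT) E13.5 cortices on the right. Hist3h2a and Hist3h2ba form the larger part of each bar. Hist2h2be and Hist1h4i take more of the cortex bars than of the sorted ones.

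The share of the whole library was small throughout. Members made up 0.0320% and 0.0252% of counts in the shRNA libraries, against 0.0324% and 0.0266% in the controls. They made up 0.0212% and 0.0208% in the PlyA-KI cortices, against 0.0190% and 0.0175% in wild type. Both libraries numbered 1 of the sorted experiment had the higher share.

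By class, H2B led in all 4 groups, and the order of the others differed between the experiments. Summed H2B averaged 159 ± 40.4 CPM in shRNA cells and 153 ± 26.4 CPM in controls, and 108 ± 1.93 CPM in PlyA-KI cortices and 93.6 ± 7.43 CPM in wild type (SD, n = 2 libraries each, here and below). H2A averaged 93.6 ± 4.44 CPM in shRNA cells and 102 ± 11.0 CPM in controls, and 69.3 ± 4.39 CPM in PlyA-KI cortices and 57.6 ± 5.39 CPM in wild type. After these came H1 in the sorted cells and H4 in the cortices.
H1, the linker that binds outside the core particle, averaged 20.7 ± 1.59 CPM in shRNA cells and 24.3 ± 6.39 CPM in controls, and 9.23 ± 1.86 CPM in PlyA-KI cortices and 7.31 ± 1.53 CPM in wild type. H4, the partner of H3 in the core, averaged 5.79 ± 2.15 CPM in shRNA cells and 8.04 ± 2.32 CPM in controls, and 21.9 ± 0.630 CPM in PlyA-KI cortices and 22.5 ± 1.20 CPM in wild type. H3 averaged 6.81 ± 0.237 CPM in shRNA cells and 7.78 ± 0.621 CPM in controls, and 1.86 ± 0.544 CPM in PlyA-KI cortices and 1.18 ± 0.271 CPM in wild type. H3 and H4 did not differ beyond their spread in the sorted cells. A single gene led each class, by shares that differed between libraries. Hist3h2a held 85.5% to 96.7% of H2A counts and Hist1h1c 63.6% to 90.7% of H1 counts over the 8 libraries. Hist3h2ba held 78.8% to 86.0% of H2B counts in the sorted cells and 44.1% to 50.6% in the cortices, where Hist2h2be stood above it in wild-type replicate 1. Hist1h4i held 44.1% to 56.8% of H4 counts in the sorted cells and 77.6% to 83.4% in the cortices, and Hist2h3c1 held 36.0% to 69.0% of H3 counts.

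**Figure D3:**
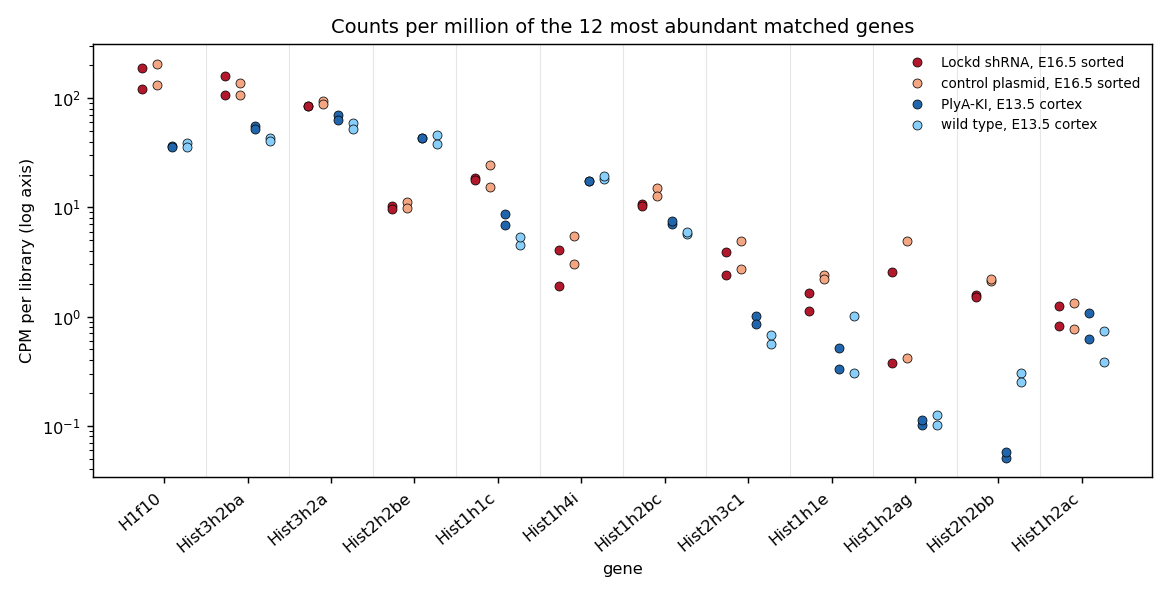
CPM (log axis) in each of the 8 libraries for the 12 matched genes with the highest mean CPM, 2 points a group. The sorted E16.5 libraries (red and orange) lie above the E13.5 cortices (blue) for most genes and below them for Hist2h2be and Hist1h4i. The points of Hist1h2ag are far apart within each sorted group.

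The promoters of the Hist3 genes are shown because these genes gave the most counts. They are the RefSeq windows of build GRCm38.p6, 250 bases before to 50 after the annotated start, on the plus strand, and capitals mark the CCAAT box, the TATA element TATAAA and the octamer ATTTGCAT on either strand.
Hist3h2ba, chr11:58948661-58948960: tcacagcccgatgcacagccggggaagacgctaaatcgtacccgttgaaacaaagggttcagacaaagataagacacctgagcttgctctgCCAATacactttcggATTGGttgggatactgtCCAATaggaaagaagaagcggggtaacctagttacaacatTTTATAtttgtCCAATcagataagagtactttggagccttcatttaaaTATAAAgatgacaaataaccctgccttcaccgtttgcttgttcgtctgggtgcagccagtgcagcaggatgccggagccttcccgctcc
Hist3h2a, chr11:58954435-58954734: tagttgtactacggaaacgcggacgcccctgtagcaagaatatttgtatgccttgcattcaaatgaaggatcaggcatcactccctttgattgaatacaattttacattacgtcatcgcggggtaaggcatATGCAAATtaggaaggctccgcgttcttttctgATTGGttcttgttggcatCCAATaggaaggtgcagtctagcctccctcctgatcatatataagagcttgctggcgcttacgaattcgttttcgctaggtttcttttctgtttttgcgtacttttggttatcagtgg

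Of the members, 62 had such a window. CCAAT stood in 85.5% of them, against 41.1% of the windows of all genes, and in 3 of 12 H4 windows against all of those of the other classes. TATAAA stood in 56.5%, against 15.7% of all. The octamer, which is known from H2B promoters, stood in 22.6%, against 1.97% of all, in 7 of 18 H2A and 7 of 16 H2B windows and in none of the H1, H3 and H4 windows. Windows of neighbouring H2A and H2B genes can overlap, as those of Hist1h2ae and Hist1h2bg do, so the same octamer can count in both classes. A match describes these letters only.

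The first comparison asked how the Lockd shRNA changed gene expression in electroporated cells. No member passed the test: of the 67, 17 passed the filter on low counts, 5 were higher and 12 lower than in controls (median log2 fold change -0.27), and edgeR's quasi-likelihood test called 0 at an adjusted p below 0.05. The background was the same, since 0% of 13758 genes were called, and the median over all of them was -0.0004. No member had an unadjusted p below 0.05, and DESeq2, which called 48 genes, called no member but gave 59 of the 67 no adjusted p.

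Hist1h2bc, an H2B gene, had the smallest p of the members. It was at 10.7 and 10.3 CPM in the shRNA libraries, against 14.9 and 12.8 CPM in the controls (log2 fold change -0.38 ± 0.21 SE, edgeR adjusted p = 0.781). The linker gene Hist1h1e stood at 1.64 and 1.13 CPM in the shRNA libraries, against 2.42 and 2.23 CPM in the controls (-0.74 ± 0.44). Hist1h1d, another linker gene, was at 0.672 and 0.126 CPM in the shRNA libraries, against 0.859 and 0.905 CPM in the controls, from 2 to 13 counts a library (-1.17 ± 0.73), and at 0.153 and 0.455 CPM in PlyA-KI cortices against 0.356 and 0.506 CPM in wild type. These 3 are named for the smallest p of the members, and none of their differences passed the test.
Hist1h4i was at 4.10 and 1.89 CPM in the shRNA libraries, against 3.05 and 5.50 CPM in the controls (-0.52 ± 0.42). Hist2h2bb was at 1.57 and 1.51 CPM in the shRNA libraries, against 2.11 and 2.23 CPM in the controls (-0.48 ± 0.42). Hist1h4i and Hist2h2bb came next by p, and neither passed the test.
For Hist3h2ba, Hist3h2a and Hist1h1c the difference was smaller than its SE. Hist3h2ba was at 161 and 106 CPM in the shRNA libraries, against 138 and 106 CPM in the controls (0.15 ± 0.18). Hist3h2a was at 85.2 and 85.7 CPM in the shRNA libraries, against 93.6 and 88.7 CPM in the controls (-0.08 ± 0.13). Hist1h1c stood at 18.4 and 17.7 CPM in the shRNA libraries, against 24.4 and 15.4 CPM in the controls (-0.12 ± 0.22).

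Beside these values stood genes with other roles in S phase. All 53 genes of a list of replication enzymes, origin factors and nucleotide synthesis genes lay lower in the shRNA cells, at a median of -0.49, and 37 had an unadjusted p below 0.05 where 7.51% of all genes did, but edgeR called none of them and DESeq2 called 5. The smallest p values belonged to Cdca7 (-0.94 ± 0.15, adjusted p = 0.143), Rrm2, a subunit of ribonucleotide reductase (-0.75 ± 0.13), and Zfp367 (-0.93 ± 0.17). Of 27 genes that transcribe histone genes or form and bind their 3′ ends, 15 were higher and 12 lower, at a median of 0.01, and of these Slbp itself was at -0.22 ± 0.14 (adjusted p = 0.851). Markers of cell types moved beside them: 13 of 16 cortical progenitor markers were lower (median -0.39) and 10 of 12 cortical neuron markers higher (median 0.20) in the shRNA cells, none called by edgeR and 2 of each list by DESeq2. The part of these lists in the members' values was not tested.

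The second comparison set PlyA-KI cortices against wild type. Again no member passed the test: 24 members passed the filter on low counts, 12 higher and 12 lower at a median of 0.01, against 0.052% of 15398 genes called and a median of 0.01 over all genes. Unadjusted p was below 0.05 for 3 abundant members, Hist3h2ba, Hist1h1c and Hist3h2a, all higher in PlyA-KI cortices. These 3 of 24 stand beside 12.5% of all genes tested, a share like the members' own. DESeq2 called 115 genes and no member, with no adjusted p for 53 of the 67.

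Hist3h2ba was at 55.2 and 51.8 CPM in PlyA-KI cortices, against 43.6 and 40.3 CPM in wild type (log2 fold change 0.34 ± 0.09 SE, edgeR adjusted p = 0.257). Hist1h1c was at 6.90 and 8.79 CPM in PlyA-KI cortices, against 4.50 and 5.33 CPM in wild type (0.66 ± 0.20, edgeR adjusted p = 0.270). Hist3h2a was at 69.9 and 63.8 CPM in PlyA-KI cortices, against 59.3 and 52.0 CPM in wild type (0.25 ± 0.09, edgeR adjusted p = 0.315). All 3 have a poly(A) hexamer at the end of a model. Of the other abundant members, Hist2h2be (0.04) and Hist1h4i (-0.12) have it as well, and Hist1h2bc (0.30) has none. With no filter on low counts Hist3h2ba and Hist1h1c passed the edgeR test (adjusted p = 0.0342 and 0.0297). These were 2 of 59 members in that run, beside 2.45% of 19773 genes called. Without PlyA-KI replicate 1 the log2 fold change of Hist1h1c was 0.83.
Hist2h2be, an H2B gene with a hexamer as well, was at 43.5 and 43.2 CPM in PlyA-KI cortices, against 45.8 and 38.1 CPM in wild type (0.04 ± 0.10). Hist1h4i was at 17.4 and 17.3 CPM in PlyA-KI cortices, against 18.1 and 19.3 CPM in wild type (-0.12 ± 0.11). Hist1h2bc stood at 7.05 and 7.54 CPM in PlyA-KI cortices, against 5.72 and 6.01 CPM in wild type (0.30 ± 0.17). None of these members had an unadjusted p below 0.05 in the edgeR test.
Hist1h2bm was at 0.509 and 0.682 CPM in PlyA-KI cortices, against 0.102 and 0.337 CPM in wild type (1.38 ± 0.64), from 4 to 24 counts a library, and at 0.373 and 0.0628 CPM in shRNA cells against 0.625 and 0 CPM in controls. The linker gene Hist1h1b was at 0.356 and 0.682 CPM in PlyA-KI cortices, against 0.814 and 1.18 CPM in wild type (-0.96 ± 0.49), and at 0.672 and 0.377 CPM in shRNA cells against 0.625 and 0.905 CPM in controls. In PlyA-KI against wild type these genes differed in opposite directions, both short of the test.

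Summed over the 67 members, PlyA-KI cortices held 212 and 208 CPM, against 190 and 175 CPM in wild type, and with 2 libraries against 2 an exact two-sided permutation test cannot go below p = 0.333. In the same comparison 45 of the 53 S phase genes were lower, at a median of -0.14, and edgeR called none. All 9 erythroid genes tested were higher, at a median of 0.55, with Alas2 called (1.01 ± 0.13, edgeR adjusted p = 0.0229), and their summed level was 446 and 643 CPM in PlyA-KI cortices, against 352 and 393 CPM in wild type. Of the cortical neuron markers, 12 of 12 were higher (median 0.32, none called by edgeR and 3 by DESeq2), as were 6 of 7 interneuron genes tested (median 0.77, none called). All 13 mitochondrially encoded genes were higher (median 0.51), 1 called by edgeR and 8 by DESeq2. Blood cells of the embryo are a part of a whole cortex, and fewer cells of a type and less RNA per cell cannot be told apart in bulk libraries. The part of these lists in the members' values was not tested.

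**Figure D4:**
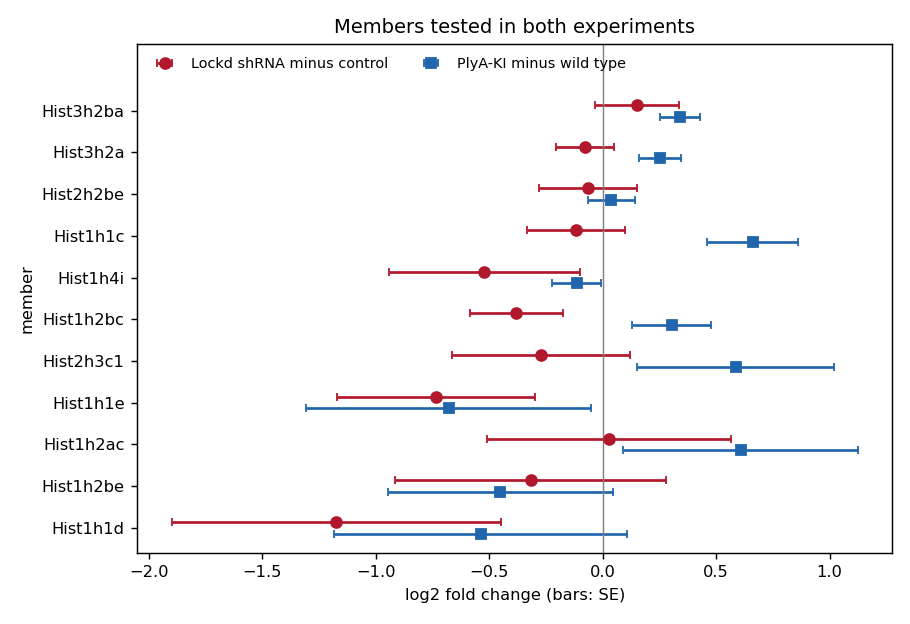
Log2 fold changes (edgeR) of the 11 members tested in both experiments, ordered by mean CPM, with SE derived from the F statistic. Red circles are Lockd shRNA minus control, and blue squares are PlyA-KI minus wild type. None passed an adjusted p of 0.05. The bars widen downwards, from 0.09 for Hist3h2ba to 0.64 for Hist1h1d in the PlyA-KI comparison.

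The PlyA-KI and shRNA responses were also set against each other, as a difference of log2 fold changes. Among 34 members tested none was called, beside 0.0128% of 15641 genes, and DESeq2 called no member either. Unadjusted p was below 0.05 for 4 of these 34 members and for 7.04% of all genes tested. The 4 were Hist1h2bc (0.68 ± 0.25, edgeR adjusted p = 0.667), Hist1h1c (0.77 ± 0.31), Hist2h2bb (-1.81 ± 0.82) and Hist3h2a (0.33 ± 0.15). Hist2h2bb stood at 0.0509 and 0.0569 CPM in PlyA-KI cortices, against 0.305 and 0.253 CPM in wild type, from 2 and 12 counts a library. Hist1h4b, an H4 gene, came next (1.50 ± 0.96), at 0.224 and 0.126 CPM in shRNA cells against 0.625 and 0.279 CPM in controls, and at 0.815 and 1.59 CPM in PlyA-KI cortices against 1.07 and 1.05 CPM in wild type. For Hist1h2ao and Hist1h2ap, both at 0 in the 4 cortices, the difference could not be estimated.

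The experiments themselves differed far more than the groups within them. Sorted E16.5 control cells were set against E13.5 wild-type cortex, a contrast in which stage, strain, sorting, electroporation and depth cannot be told apart. Of 34 members that passed the filter on low counts, edgeR called 16 higher and 3 lower, where 28.8% of 15641 genes were called higher and 30.5% lower, 59.3% in all. The members' median was 1.21, against -0.02 over all genes, and was the same with the genes at 0 in wild type taken at the floor of 3 counts. Some of the 34 passed the filter through the sorted libraries alone, so that neither the count nor the median is a measure of the whole family. Of the 11 members that passed the filter within each experiment on its own, 6 were called higher and 2 lower.

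The linker gene Hist1h1c was higher, at 24.4 and 15.4 CPM in sorted controls, against 4.50 and 5.33 CPM in wild-type cortex (log2 fold change 1.99 ± 0.22 SE, edgeR adjusted p = 8.44e-06). Hist3h2ba was higher, at 138 and 106 CPM in sorted controls, against 43.6 and 40.3 CPM in wild type (1.52 ± 0.17). Hist3h2a, its neighbour, was higher by less, at 93.6 and 88.7 CPM in sorted controls, against 59.3 and 52.0 CPM in wild type (0.69 ± 0.11). In all 3 both sorted libraries stood above both cortices.
Hist1h2bc rose to 14.9 and 12.8 CPM in sorted controls, against 5.72 and 6.01 CPM in wild type (1.22 ± 0.17). Hist2h3c1, the H3 gene with most counts, rose to 2.73 and 4.94 CPM in sorted controls, against 0.559 and 0.674 CPM in wild type (2.61 ± 0.42), and stood at 2.39 and 3.90 CPM in shRNA cells and 1.02 and 0.853 CPM in PlyA-KI cortices. Hist2h2bb rose to 2.11 and 2.23 CPM in sorted controls, against 0.305 and 0.253 CPM in wild type (2.93 ± 0.48). All 50-base windows of Hist2h3c1, Hist2h2bb and Hist2h2aa1 also occur in other genes, so their counts depend on how such reads were placed, which is not given in the sources used here.
Hist1h1e rose to 2.42 and 2.23 CPM in sorted controls, against 0.305 and 1.01 CPM in wild type (1.77 ± 0.54), and stood at 0.331 and 0.512 CPM in PlyA-KI cortices. Hist2h2aa1, an H2A gene, rose to 0.937 and 1.25 CPM in sorted controls, against 0.0763 and 0.295 CPM in wild type (2.48 ± 0.67), and stood at 1.79 and 1.01 CPM in shRNA cells and 0.229 and 0.199 CPM in PlyA-KI cortices. The groups did not overlap for either gene, but Hist1h1e lost its call without wild-type replicate 1 (1.18, adjusted p = 0.101), and so did Hist2h2aa1 without that library (1.86, adjusted p = 0.0525) or without control replicate 2 (2.25, adjusted p = 0.0552).

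The members that fell were Hist2h2be, Hist1h4i and Hist2h2ab. Hist2h2be stood at 11.2 and 9.82 CPM in sorted controls, against 45.8 and 38.1 CPM in wild type (-2.01 ± 0.15, edgeR adjusted p = 2.58e-07). Hist1h4i stood at 3.05 and 5.50 CPM in sorted controls, against 18.1 and 19.3 CPM in wild type (-2.13 ± 0.29, edgeR adjusted p = 3.71e-05). For Hist2h2be the shRNA libraries stood at 10.2 and 9.68 CPM, near the sorted controls. All sorted libraries lay below all cortices for both genes.
Hist2h2ab, an H2A gene of the Hist2 cluster, was at 0.156 and 0.0696 CPM in sorted controls, against 0.610 and 0.400 CPM in wild type, from 1 to 24 counts a library (-2.15 ± 0.84, edgeR adjusted p = 0.0424). In the other groups it was at 0.149 and 0.314 CPM in shRNA cells and at 0.535 and 0.398 CPM in PlyA-KI cortices. Its call was lost in DESeq2 (adjusted p = 0.148) and without control replicate 1 (-2.77, adjusted p = 0.0963) or 2 (-1.68, adjusted p = 0.227).

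Members with few counts in wild type gave wide intervals. Hist2h3b had 17 counts in the sorted controls, against 2 in wild type, a ratio of 27.2 in CPM with an exact 95% interval of 6.45 to 242. Hist1h3h had 19 counts, against 5 (12.1, interval 4.39 to 41.6), Hist1h3c 8, against 2 (12.8, interval 2.55 to 124), and Hist1h3g 9, against 3 (9.59, interval 2.39 to 55.0). All 4 are H3 genes whose few counts lie mostly in the sorted libraries, and they passed the filter through these. These intervals cover the counting of summed libraries, not the spread between them, and the calls of all 4 were lost without 1 or more of the single libraries.
By library, Hist2h3b was at 0.522 and 0.126 CPM in shRNA cells against 1.02 and 0.279 CPM in controls, and at 0 in both PlyA-KI cortices against 0.0508 and 0 CPM in wild type. Hist1h3h was at 0.224 and 0.440 CPM in shRNA cells against 0.859 and 0.557 CPM in controls, and at 0 and 0.114 CPM in PlyA-KI cortices against 0.102 and 0.0211 CPM in wild type. The other pair was as thin, and single libraries decide such values.
Hist1h3c was at 0.224 and 0.691 CPM in shRNA cells against 0.469 and 0.139 CPM in controls, and at 0.0509 and 0.0569 CPM in PlyA-KI cortices against 0 and 0.0421 CPM in wild type. Hist1h3g was at 0.672 and 0.126 CPM in shRNA cells against 0.234 and 0.418 CPM in controls, and at 0.102 and 0.0284 CPM in PlyA-KI cortices against 0 and 0.0632 CPM in wild type. Hist1h4h, an H4 gene, was at 0.469 and 0.696 CPM in sorted controls, against 0.203 and 0.0843 CPM in wild type (2.01 ± 0.75), and at 0.298 and 0.503 CPM in shRNA cells and 0.305 and 0.171 CPM in PlyA-KI cortices. Its call was lost in DESeq2 (adjusted p = 0.110) and without either control library or wild-type replicate 2.

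A set of H2A genes that share most of their sequence with other genes varied by library within the groups. Hist1h2ag had 34 and 6 counts in the shRNA libraries, against 63 and 6 in the controls, and 4 and 4 in PlyA-KI cortices, against 4 and 6 in wild type. Hist1h2ao had 38 and 1 counts in the shRNA libraries, against 40 and 11 in the controls, and Hist1h2ap had 27 and 2 in the shRNA libraries, against 25 and 1 in the controls. Both libraries numbered 1 of the sorted experiment were high for all 3 genes, and Hist1h2ao and Hist1h2ap had no count in any cortex.
Summed over the control libraries, Hist1h2ao stood at 1.88 CPM, which is 54.3-fold the floor of 3 counts over both wild-type cortices. An exact 95% interval of the ratio starts lower, at 42.6. Hist1h2ap stood at 0.957 CPM, 27.7-fold the same floor, and its interval starts at 20.96. The floor and the intervals take cortex counts as independent, although low counts there were mostly even. These sums rest on control replicate 1: with control replicate 2 alone Hist1h2ao was 22.2-fold the floor, and Hist1h2ap, with 1 count, gives no fold. Hist1h2ag was at 4.92 and 0.418 CPM in sorted controls, against 0.102 and 0.126 CPM in wild type, and its log2 fold change of 4.44 ± 1.06 became 1.84 without control replicate 1 (edgeR adjusted p = 0.256). Hist1h2ap lost its call without that library as well (adjusted p = 0.355). Other genes share 78.9% of the 50-base windows of Hist1h2ag, 93.5% of those of Hist1h2ao and 93.1% of those of Hist1h2ap, and the strains of the experiments differ. The part of either in these values was not tested.

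Hist1h2ac, an H2A gene with little shared sequence and a mean among the 12 highest, showed no call in any comparison. It was at 0.821 and 1.26 CPM in shRNA cells against 1.33 and 0.766 CPM in controls, and at 1.07 and 0.626 CPM in PlyA-KI cortices against 0.737 and 0.379 CPM in wild type. The groups overlapped within both experiments. Of the members not named with values above, edgeR called none in the 4 tests. DESeq2, run without the filter on low counts, called 4 further members between sorted controls and wild type, Hist1h2an, Hist1h2bq, Hist1h3a and Hist1h3e. Each had at most 5 counts in a control library and 0 in both wild-type ones. In that run DESeq2 called 18 of 64 members, beside 42.7% of 20653 genes.

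H1f10, the gene set apart, had the highest mean CPM of the matched genes over the 8 libraries, though in every cortex it lay below Hist3h2a and Hist3h2ba. It was at 191 and 121 CPM in shRNA cells, against 207 and 133 CPM in controls (-0.11 ± 0.22), and at 36.8 and 35.6 CPM in PlyA-KI cortices, against 38.9 and 35.9 CPM in wild type (-0.06 ± 0.09). Sorted controls were higher than wild-type cortex (2.16 ± 0.21, edgeR adjusted p = 2.36e-06). It has a poly(A) hexamer and no stem-loop in its models, and like Hist3h2ba it was highest in the sorted libraries numbered 1.

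Other gene lists give the setting of the contrast between the experiments. Of the 53 S phase genes, 51 were called lower in sorted controls than in wild-type cortex and none higher, at a median of -1.43, led by Wdr76 (-2.17 ± 0.13), Pole, a replicative DNA polymerase subunit (-2.01 ± 0.12), and Exo1, an exonuclease (-2.26 ± 0.14). Of 11 histone variants listed as independent of replication, H1f10 included, 5 were called higher and 2 lower, at a median of 0.22. Of the 27 genes of histone transcription and 3′ end formation, 18 were called lower and 4 higher, led by Casp8ap2 (-1.35 ± 0.16), Papola, the poly(A) polymerase (-0.95 ± 0.13), and Ncbp2, a cap-binding subunit (-0.73 ± 0.10).
Of other RNAs known to carry no poly(A) tail, 12 passed the filter, 9 higher and 3 lower at a median of 1.20, and 3 were called higher. Rn7sk was at 4.14 and 19.3 CPM in sorted controls, against 0.610 and 0.337 CPM in wild type (4.64 ± 0.62). Rpph1 was at 1.09 and 4.46 CPM in sorted controls, against 0.153 and 0.337 CPM in wild type (3.45 ± 0.71). Rmrp was at 0.312 and 7.59 CPM in sorted controls, against 0 and 0.169 CPM in wild type (5.39 ± 1.28).
These 3 were higher in control replicate 2. They made up a small part of the summed level of the whole list. That sum was higher in control replicate 1, at 1213 CPM against 571 CPM in replicate 2. It was also higher in shRNA replicate 1, at 1150 CPM against 639 CPM. Hist3h2ba, Hist1h1c, Hist1h2ag, Hist1h2ao and Hist1h2ap were higher in control replicate 1, and Hist1h4i, Hist2h3c1 and Hist2h2aa1 in control replicate 2. The part of RNA without a tail in the members' values was not tested.

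**Figure D5:**
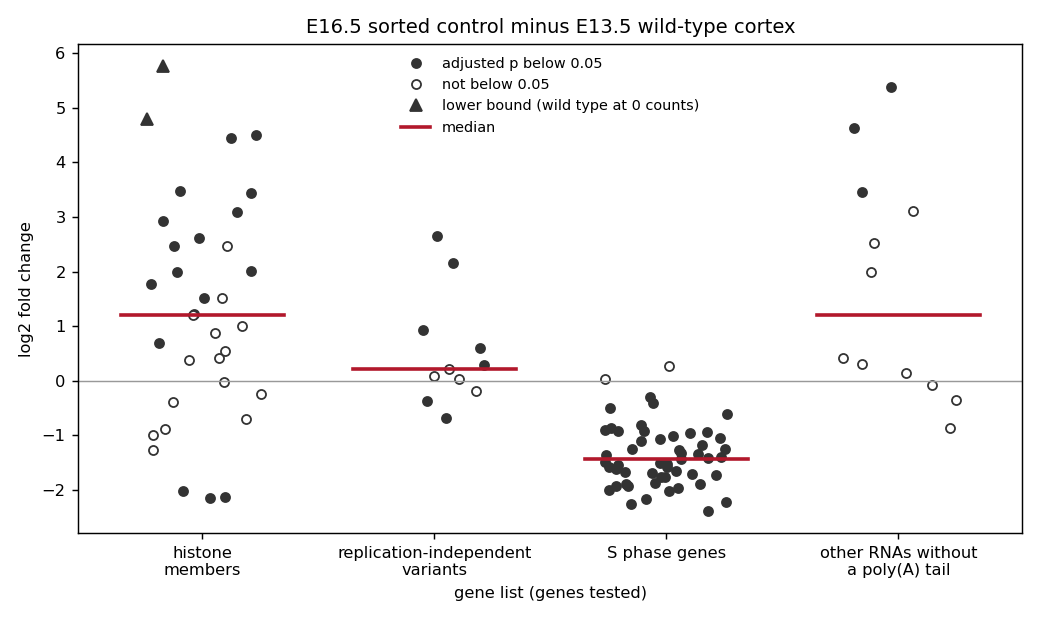
Log2 fold changes (edgeR) of sorted E16.5 control cells minus E13.5 wild-type cortex for the genes tested in 4 lists. Filled points passed an adjusted p of 0.05, and triangles are folds over the floor of 3 counts for the 2 members at 0 counts in wild type. Red lines are medians (1.21 for the members, 0.22 for the variants, -1.43 for the S phase genes and 1.20 for the other RNAs without a tail). The S phase genes lie almost wholly below 0, and the members on both sides of it. Some members passed the filter through the sorted libraries alone, which bears on their median.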

How the data were processed

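mRNA libraries were sequenced and processed with HISAT2, featureCounts, Trimmomatic and bcl2fastq against build mm10 (GRCm38), per the submitters' processing notes. Versions, strand and the placing of multi-reads are not given in the sources used. The authors deposited, per the file headers, a count and an FPKM value for each gene and library, the FPKM being the count scaled to library total and counted length. Entrez IDs were named with RefSeq (GRCm38.p6). The members, lists and tests were chosen with earlier results of these data known. edgeR 4.0.16 (quasi-likelihood test, TMM, filterByExpr, R 4.3.3) was run on the counts of all genes, with Benjamini-Hochberg adjustment over all genes tested, and DESeq2 1.42.0 was an alternative; the code was tested on simulated data. The shRNA and PlyA-KI comparisons used their own 4 libraries, the other comparisons all 8. The SE of a log2 fold change is its absolute value divided by the square root of the quasi-likelihood F statistic. CPM are counts per 1e6 total counts, and FPKM served only to compare genes. Depth was 12805874 to 47460020 counts, and a count of 0 allows 3. Shared sequence was measured as windows of 50 bases found in other GENCODE genes. Values are given for the 12 genes highest in mean CPM, every member called in a test, the 5 members with the smallest p in each test, and, from a list set beside a histone result, up to 3 genes with the smallest p.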

Additional observations from a re-analysis of the deposited data

How the results depend on the processing

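Counts of calls within the experiments moved with many choices, and so did the members called between them. With DESeq2 size factors within edgeR the genes called stayed at 0 for the shRNA, 8 for PlyA-KI and 2 for the difference. They also stayed so when 2 libraries had to reach a CPM of 1. For the shRNA, where 0 genes were called, the count was 184 with no filter on low counts, 48 with DESeq2, 53 in a fit of all 8 libraries and 18 to 133 when single libraries were left out, and 0 members in each. For PlyA-KI, where 8 genes and 0 members were called, it was 484 genes and 2 members with no filter, 115 and 0 with DESeq2, 4 and 0 in a fit of all 8 libraries, and 48 to 565 genes and 0 to 1 member when single libraries were left out. For the difference between the responses, with 2 genes called, it was 97 with no filter, 22 with DESeq2 and 2 to 8 without single libraries, and 0 members throughout. For sorted controls against wild type, 19 members were called, 20 with no filter (15 of them among the 19), 18 with DESeq2 (14 among the 19), 13 when 2 libraries had to reach a CPM of 1, and 11 to 16 when single libraries were left out, 11 without control replicate 1. Halving the even-rich cortex counts, chosen after seeing the data, gave 14, 13 of them among the 19. Of 899 values of single members under all alternatives, 59 had the opposite sign to the reported one, and none of these belonged to a called member. Without its most abundant member, the mean summed CPM of the sorted cells was 3.50 for H1, 9.41 for H2A, 28.4 for H2B, 3.80 for H3 and 3.28 for H4, and that of the cortices 1.89, 2.19, 53.0, 0.745 and 4.19 in the same order. No label ties libraries of the same replicate number to each other, so whether they form pairs cannot be told. Deviations of same-numbered libraries correlated at 0.25 in the shRNA experiment, 0.20 in the PlyA-KI one and -0.01 between controls and wild type. A replicate block gave 161 genes and 0 members for the shRNA, 2193 and 3 for PlyA-KI (Hist3h2ba, Hist3h2a and Hist1h1c), 61 and 0 for the difference, and 8975 and 15 for sorted controls against wild type. Depth limits most members, 43 of which never passed 20 counts.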
